A study of Mus musculus with 16 samples.

Results

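The proteasome genes are the 51 protein-coding mouse genes whose symbols begin with Psma, Psmb, Psmc, Psmd, Psme, Psmf or Psmg followed by a digit, out of 21883 protein-coding genes in the RefSeq table of GRCm38.p6 (mm10). They were chosen by symbol alone, with no measured value in the rule, though earlier results of these data were known. The name covers 8 genes for alpha subunits and 7 genes for standard beta subunits of the 20S core, 4 genes for immuno- and thymoproteasome beta subunits, 6 ATPases of the 19S base, 11 other 19S subunits, 6 activators or inhibitors, 7 assembly chaperones, and 2 genes whose products are not proteasome subunits (Psmc3ip, a partner in meiotic recombination, and Psme3ip1, which binds the activator PSME3).

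The 26S proteasome degrades proteins tagged with ubiquitin. Its 20S core is a barrel of alpha and beta rings with the cutting sites on the inside, and the 19S cap binds, unfolds and feeds in the substrate. Most subunit genes are used in every cell and are raised together by the transcription factor NFE2L1 when proteasome activity is short, while the immunoproteasome subunits are induced by interferon. Human embryonic stem cells are known for high proteasome activity.

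Open chromatin was measured by ATAC-seq, in which a transposase cuts accessible DNA, in mouse embryonic stem cells (ESCs) with a GFP knock-in at Rx, an eye field gene. ESCs were kept in 2i+LIF, and embryoid bodies (EBs) were grown from the same line by the SFEBq method, a route to neural and retinal tissue, with matrigel added. The altered ESC groups were double knockouts of Wdr5 and p53 that stably carried a plasmid for S91K-Y191F mutant WDR5, a plasmid for wild-type WDR5 (WDR5WT) or the empty backbone plasmid, and 2 p53 knockout lines, each a single clone (C9 and H9). All were set against parental Rx:GFP ESCs or against each other. In EBs, the Wdr5 and p53 double knockout (DKO), with no plasmid and no day named, was set against parental EBs of day 4. Every one of these 8 groups had 2 libraries and 1 peak list per library. WDR5 is a scaffold of the histone methyltransferase complexes of the MLL family, and p53 is a transcription factor of the stress response.

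The 12 ESC lists held 1535 to 32709 peaks and the 4 EB lists 75673 to 93646. The shortest were S91K-Y191F replicate 1 (5174 peaks), both backbone lists (1535 and 2492) and parental ESC replicate 2 (5330). Without read counts in the lists, the depth behind a peak is unknown, and no value here has a counting interval. A peak at a gene end does not report on a deletion inside the gene, so the lists do not check the knockouts: Wdr5 had an end peak in all 4 EB lists, DKO included, and in 1 of 12 ESC lists, and Trp53 in 4 EB and 5 ESC lists. Of 8 pluripotency genes, 7 and 8 had an end peak in DKO and parental EB lists, 2 and 5 in S91K-Y191F lists, 1 (Zfp42) in each backbone list, 6 or 7 in WDR5WT, C9 and H9 lists and 7 and 3 in parental ESC lists. Of 6 neural and retinal genes, 4 and 5 had one in DKO EB lists against 6 and 6 in parental EB lists. In ESC lists 0 to 3 had one. Six3 and the pluripotency gene Esrrb had one in both parental EB lists and neither DKO EB list, as did 0.818% of all genes. Of 6 fibroblast genes, 5 had one in every EB list and 0 to 4 in ESC lists, and of 5 endoderm and mesoderm genes 3 or 4 in EB and 0 to 3 in ESC lists. Over all genes the share was 64.6% to 66.7% in EB lists and 1.24% to 54.9% in ESC lists. The marker sets are small, and no cell type is read from their counts.

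A gene was counted as having an end peak when a peak overlapped the stretch within 1000 bp of either of its ends, since the gene table carries no strand. Strand and start sites came from the RefSeq promoter table (GRCm38.p6), which covers 43 of the 51 genes. The promoters of 6 members are shown here because the main patterns turn on them. Each window runs from 250 bases before the start site to 50 after it, 5′ to 3′ on the gene's own strand. Capitals mark matches, on either strand, to TGANNNNGC (the core of the antioxidant response element, read by NFE2L1 and its relatives), CCAAT (NF-Y), the palindromic motif of nuclear respiratory factor NRF1, or CCGGAAG (ETS factors).
Psma2, chr13:14612992-14613291, plus strand: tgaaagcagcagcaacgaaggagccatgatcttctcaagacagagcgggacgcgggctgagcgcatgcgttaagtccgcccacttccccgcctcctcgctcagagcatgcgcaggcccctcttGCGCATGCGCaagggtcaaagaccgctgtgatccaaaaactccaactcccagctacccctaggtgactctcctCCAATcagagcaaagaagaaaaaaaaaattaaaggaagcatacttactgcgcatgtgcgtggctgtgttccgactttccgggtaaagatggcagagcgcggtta
Psmb5, chr14:54617946-54618245, minus strand: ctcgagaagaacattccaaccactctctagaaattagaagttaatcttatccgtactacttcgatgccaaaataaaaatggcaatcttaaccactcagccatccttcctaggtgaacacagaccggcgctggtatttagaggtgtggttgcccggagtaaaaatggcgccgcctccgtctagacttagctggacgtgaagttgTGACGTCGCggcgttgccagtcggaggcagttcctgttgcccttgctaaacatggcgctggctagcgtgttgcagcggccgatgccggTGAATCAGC
Psmb6, chr11:70525107-70525406, plus strand: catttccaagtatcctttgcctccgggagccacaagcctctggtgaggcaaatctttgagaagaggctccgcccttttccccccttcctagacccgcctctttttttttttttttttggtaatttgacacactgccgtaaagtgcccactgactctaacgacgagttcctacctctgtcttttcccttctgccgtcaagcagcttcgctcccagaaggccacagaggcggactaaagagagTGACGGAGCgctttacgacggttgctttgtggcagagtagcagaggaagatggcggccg
Psma7, chr2:180042415-180042714, minus strand: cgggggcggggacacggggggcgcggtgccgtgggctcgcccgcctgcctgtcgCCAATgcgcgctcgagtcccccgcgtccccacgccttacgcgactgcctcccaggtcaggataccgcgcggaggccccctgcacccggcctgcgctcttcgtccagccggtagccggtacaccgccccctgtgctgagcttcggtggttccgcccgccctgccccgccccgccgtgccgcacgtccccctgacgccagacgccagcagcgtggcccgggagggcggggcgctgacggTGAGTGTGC
Psmc5, chr11:106255935-106256234, plus strand: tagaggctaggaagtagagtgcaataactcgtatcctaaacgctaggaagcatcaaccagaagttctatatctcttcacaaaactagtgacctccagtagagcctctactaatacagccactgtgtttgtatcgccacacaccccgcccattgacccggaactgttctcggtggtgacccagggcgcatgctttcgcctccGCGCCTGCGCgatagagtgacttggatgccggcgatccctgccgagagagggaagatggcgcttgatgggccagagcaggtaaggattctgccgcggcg
Psma6, inner start site, chr12:55398575-55398874, plus strand: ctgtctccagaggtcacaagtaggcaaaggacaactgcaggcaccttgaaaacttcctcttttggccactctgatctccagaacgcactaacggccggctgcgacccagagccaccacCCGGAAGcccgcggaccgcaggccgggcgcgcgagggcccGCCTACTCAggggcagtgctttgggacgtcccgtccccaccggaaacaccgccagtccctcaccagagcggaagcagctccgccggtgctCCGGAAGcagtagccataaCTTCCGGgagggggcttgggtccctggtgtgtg

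A peak overlapped the Psma2 window in 15 of the 16 lists, more than for any member but Psme3ip1. The Psmb5 and Psmb6 windows were overlapped in all 4 EB lists and in no ESC list. The Psma7 and Psmc5 windows showed the opposite, with 8 and 7 ESC lists and no EB list. The Psma6 window, at a start site inside the annotated gene, was overlapped in 12 lists, although neither end of the gene had a peak.

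In EBs nearly all proteasome genes had an end peak, with the same mean share in both genotypes. Of the 51 genes, 45 (88.2%) and 46 (90.2%) had one in the DKO EB lists, against 46 (90.2%) and 45 (88.2%) in the parental EB lists. Over all protein-coding genes the share was 64.6% and 66.4% in DKO EBs and 66.7% and 65.3% in parental EBs. The mean share of members was 89.2% ± 1.39 in DKO EBs and 89.2% ± 1.39 in parental EBs (SD, n = 2 each), a difference of 0.0 percentage points (two-sided exact permutation test over libraries, p = 1.0, smallest possible p 0.333). All 4 lists held an end peak for 44 members (86.3%), beside 61.2% of all genes. None of them did for Psma6, Psma7, Psmc5, Psme2b and Psmf1 (9.80%, beside 28.8% of all genes). No member had an end peak in both lists of one genotype and neither list of the other, where 0.695% of all genes had one in DKO EBs only and 0.818% in parental EBs only. The 2 members that varied did so in a single library each. Psmb8 was without an end peak in DKO EB replicate 1, and Psmb11 was without one in parental EB replicate 2. Psmb8 was therefore in parental EBs only (1 member) when DKO EB replicate 2 was left out, and Psmb11 in DKO EBs only (1 member) when parental EB replicate 1 was left out.

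In ESCs the share of members with an end peak ranged from 0.0% to 80.4%. It was 0.0% to 13.7% in the 4 lists of up to 5330 peaks and 54.9% to 80.4% in the 8 longer ones. Among the 8, the shortest list (16257 peaks) had the lowest share and the longest (32709 peaks) the highest. The order was not strict, since H9 replicate 2 (31130 peaks) had 68.6% and C9 replicate 2 (31782 peaks) 64.7%. S91K-Y191F ESCs had 5 (9.80%) and 28 (54.9%) of 51, where all genes had 13.1% and 33.8%. WDR5WT ESCs had 36 (70.6%) and 41 (80.4%), beside 49.4% and 54.9% of all genes. Backbone ESCs had 0 (0.0%) and 2 (3.92%), beside 1.24% and 4.9% of all genes. These 6 lists do not overlap between WDR5WT and backbone, and S91K-Y191F lies between them with its replicates far apart.

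Clone C9 had 35 (68.6%) and 33 (64.7%) members with an end peak, beside 43.0% and 44.3% of all genes. Clone H9 had 39 (76.5%) and 35 (68.6%), beside 48.2% and 48.8%. Parental ESCs had 34 (66.7%) and 7 (13.7%), beside 40.8% and 12.4%. The members stood below the share of all genes in both backbone lists and in S91K-Y191F replicate 1, close to it in parental ESC replicate 2, and 19.8 to 28.2 percentage points above it in the other 12 lists. With bulk samples, fewer cells with an open site and a less open site in every cell cannot be told apart.

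**Figure D1:**
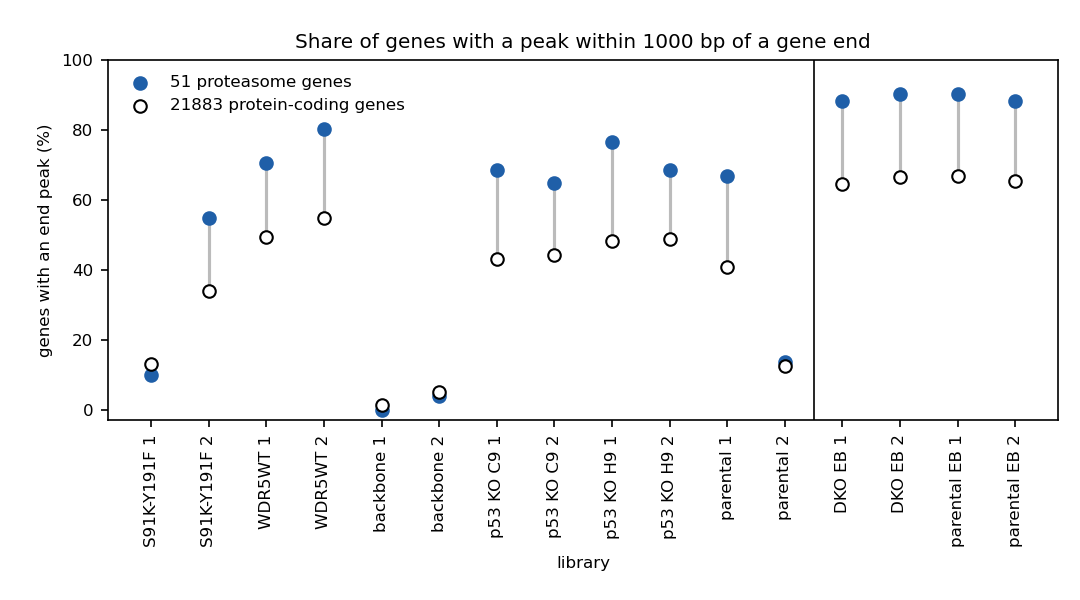
Percent of genes with an end peak (y axis) in each of the 16 libraries (x axis), for the 51 proteasome genes (filled points) and all 21883 protein-coding genes (open points), joined by a line. The filled points lie above the open ones in parental ESC replicate 2 and in every list over 5330 peaks, and below them in the 3 shortest lists.

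The 51 genes fell into a few patterns across the lists. End peaks were found in 15 lists for Psma2 and Psme3ip1 (3.92%, beside 3.89% of all genes in at least 15), in 14 for Psma1 and Psme2, and in 13 for Psmd3, Psmd5, Psmd14 and Psmg4. In 12 lists, that is in the 4 EB lists, the 6 of C9, H9 and WDR5WT, S91K-Y191F replicate 2 and parental ESC replicate 1, there were 14 members: Psma4, Psma5, Psmc2, Psmc3, Psmc6, Psmd6, Psmd7, Psmd8, Psmd10, Psmd11, Psmd12, Psmd13, Psme4 and Psmg1. End peaks were found in 11 lists for Psmb1, Psmb2, Psmb3, Psmc1, Psmc4, Psmd4 and Psmg2, in 10 for Psmb10 and Psmd2, in 9 for Psmd1, and in 8 for Psma3, Psma7, Psma8, Psmb9 and Psmc3ip. Fewer lists held one for Psmc5 and Psme3 (7), Psmb4 and Psmb7 (6), Psme1 (5), Psmb5, Psmb6, Psmd9 and Psmg3 (4), and Psmb8 and Psmb11 (3). No list held one for Psma6, Psme2b and Psmf1 (5.88% of the members, beside 26.5% of all genes). No member had one in all 16 lists, since backbone replicate 1 held none.

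**Figure D2:**
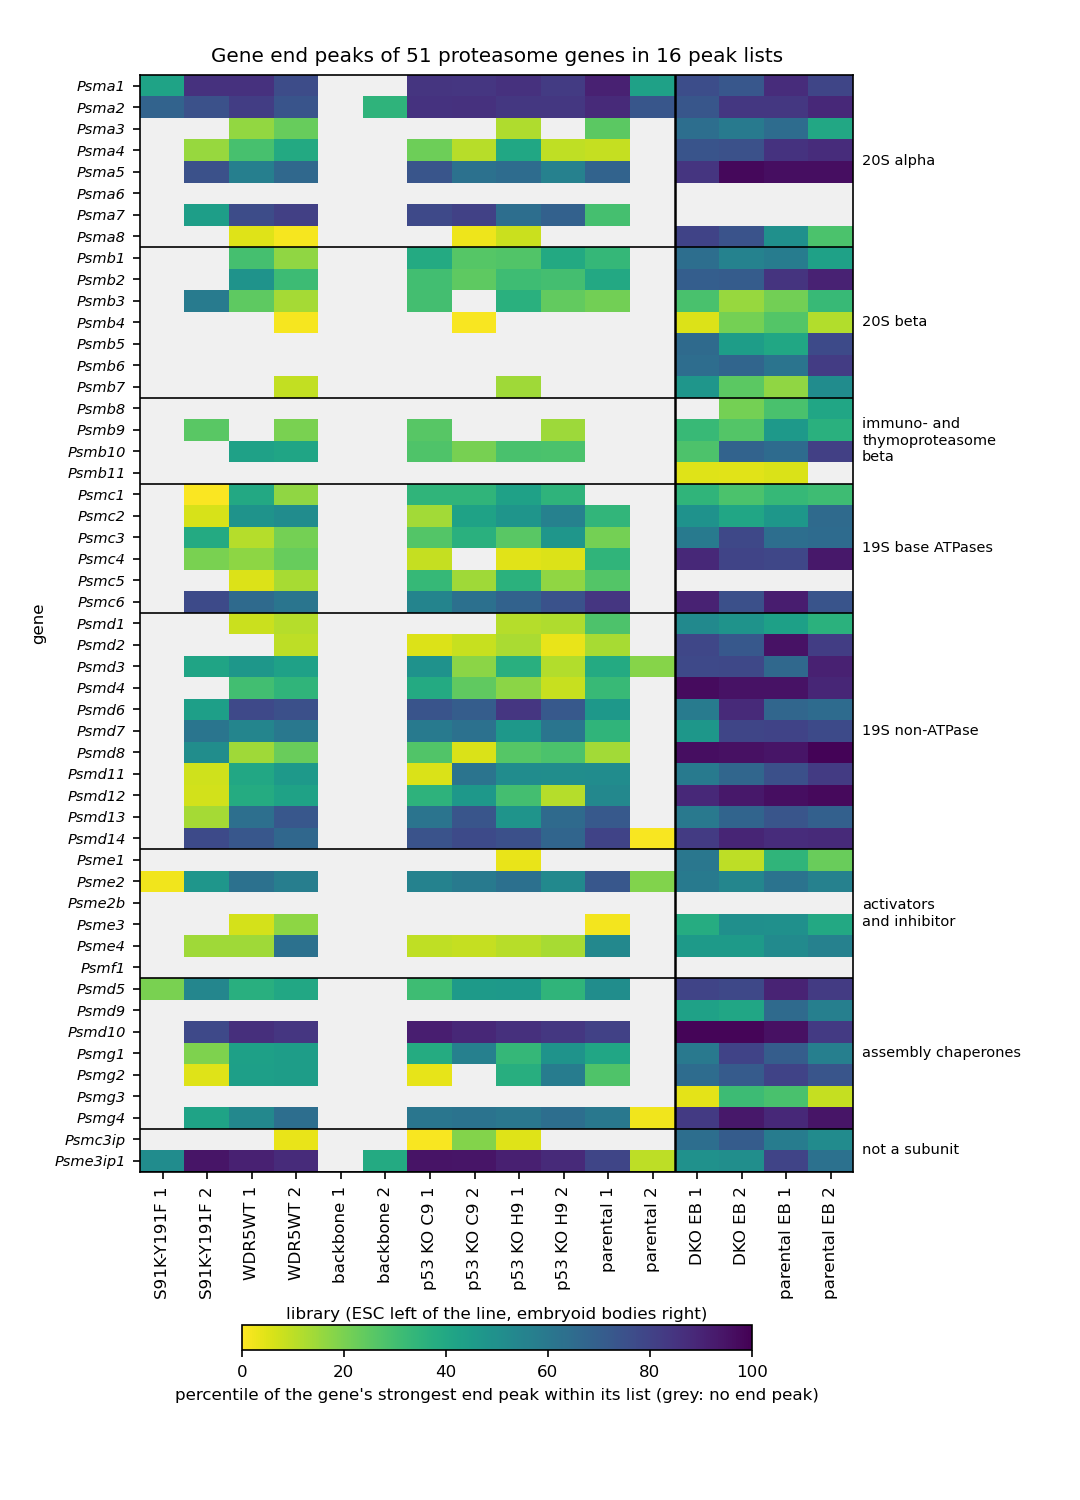
Each row is a proteasome gene, grouped by role, and each column a library, with ESC libraries left of the vertical line and EB libraries right of it. Colour gives the percentile of the gene's strongest end peak among all gene end peaks of that list, and grey means no end peak: the 2 backbone columns are grey but for 2 genes, and the EB columns are filled for 44 of 51 rows.

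Among the alpha subunits, which form the outer rings of the core and its gate, Psma2 and Psma1 were found most widely. The authors' peak signal at Psma2, a value read only within its own list, was 497 and 997 in S91K-Y191F, 1848 and 1755 in WDR5WT, none and 275 in backbone, 1666 and 1912 in C9, 2006 and 2079 in H9, and 1521 and 507 in parental ESCs. In the EB lists, whose value is the peak's fold enrichment over background, Psma2 had 4.93 and 5.91 in DKO against 6.15 and 6.35 in parental EBs. Psma2 thus ranked at the 68.2 to 88.3 percentile of all gene end peaks in every list that held it but backbone replicate 2, where it stood at 35.1. Psma1 had signals of 329 and 1316 in S91K-Y191F, 2043 and 1881 in WDR5WT, none in backbone, 1617 and 1815 in C9, 2137 and 2018 in H9, and 1692 and 322 in parental ESCs. Only the backbone lists were without it.

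Psma5 had an end peak in 12 lists and was the top-ranked member in parental EB replicate 1, at the 96.4 percentile with a fold enrichment of 7.38. Psma4 was found in the same 12 lists. Psma8, a meiotic alpha subunit used in the testis, had weak ESC peaks, with signals of 252 and 219 in WDR5WT, 220 in C9 replicate 2 and 276 in H9 replicate 1, all at or below the 8.07 percentile. In EBs its folds were 5.20 and 5.46 in DKO, at the 79.7 and 74.5 percentile, against 4.65 and 3.93 in parental EBs, at the 49.8 and 28.5 percentile. Psma8 was thus ranked higher within both DKO lists than within either parental list. No test was made of this ranking, since ranks from lists of unlike length show no change.

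The alpha genes Psma6 and Psma3 depend on where the gene is taken to begin. Psma6 had no peak within 1000 bp of either gene end, but its promoter-table start site at position 55398825 of chromosome 12, inside the gene, had a peak in 12 lists (8 ESC and 4 EB). Psma3 had an end peak in 8 lists and a peak at an annotated start site in 12. Psmf1, the gene of an inhibitor of the core, likewise had none at its ends and a peak at its annotated start site in 12 lists. Once annotated start sites were added to the gene ends, a choice made after the data were seen, Psme2b was the one member of the 51 with no peak in any list.

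Of the standard beta subunits, all 7 had an end peak in each of the 4 EB lists, DKO and parental, where 64.6% to 66.7% of all genes had one. In ESCs 0 and 1 of 7 had one in S91K-Y191F, 3 and 5 in WDR5WT, 0 and 0 in backbone, 3 and 3 in C9, 4 and 3 in H9, and 3 and 0 in parental ESCs. All genes had 13.1% and 33.8% in S91K-Y191F, 49.4% and 54.9% in WDR5WT, and 1.24% and 4.9% in backbone. They had 48.2% and 48.8% in H9, and 40.8% and 12.4% in parental ESCs. The count of 3 of 7 in C9 is close to the share of all genes there, 43.0% and 44.3%. Of the 3 genes for the cutting subunits, Psmb5 (chymotrypsin-like) and Psmb6 (caspase-like) were in no ESC list and Psmb7 (trypsin-like) in 2. Among all genes, 26.5% had an end peak in no list and a further 6.27% in all 4 EB lists and no ESC list. Psmb1, Psmb2 and Psmb3, which carry no cutting site, were in 7 ESC lists each. Psmb4, also without a cutting site, was in 2 ESC lists, with signals of 216 in WDR5WT replicate 2 and 206 in C9 replicate 2. Both are close to the lowest signal any ESC list holds, 200.

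Psmb5 had fold enrichments of 4.66 and 4.40 in DKO EBs against 4.32 and 5.75 in parental EBs. Psmb6 had 4.61 and 5.17 in DKO EBs against 5.11 and 5.99 in parental EBs. The genotypes overlapped for Psmb5, and for Psmb6 the lower parental value lay just below the higher DKO value. Psmb7 had 4.13 and 3.76 in DKO EBs against 3.40 and 4.72 in parental EBs, and signals of 332 in WDR5WT replicate 2 and 342 in H9 replicate 1. With Psmd9 and Psmg3, Psmb5 and Psmb6 were the 4 members (7.84%) in all 4 EB lists and no ESC list, a pattern of 6.27% of all genes. The share of the members is close to that of all genes. ESC and EB lists were made with different columns and list lengths, so stage and processing cannot be told apart.

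The inducible beta subunits replace the cutting subunits in the immunoproteasome: Psmb8 stands in for Psmb5, Psmb9 for Psmb6 and Psmb10 for Psmb7. Psmb9, which begins 226 bp from the start of the peptide transporter gene Tap1 on the other strand, had peaks in S91K-Y191F replicate 2 (signal 368), WDR5WT replicate 2 (506), C9 replicate 1 (415) and H9 replicate 2 (362). Its EB folds were 3.73 and 3.82 in DKO against 4.53 and 4.19 in parental EBs. In 5 of the 8 lists the summit or centre of the peak was nearer to Tap1 than to Psmb9.

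Psmb10 had signals of 751 and 878 in WDR5WT, 433 and 384 in C9, and 531 and 547 in H9, and no end peak in S91K-Y191F, backbone or parental ESCs. Its EB folds were 3.60 and 5.20 in DKO against 5.26 and 5.92 in parental EBs. The Psmb10 peaks were not at an annotated end: their summits or centres lay 1236 to 1329 bp from the nearest one, inside a gene of 2665 bp, and no list had a peak over its promoter window. Psmb8 had no ESC peak and EB folds of 3.61 in DKO replicate 2 against 3.89 and 4.34 in parental EBs. These peaks were 513 to 575 bp upstream of Psmb8 and nearer, at 395 to 457 bp, to the end of Tap1. Psmb11, the thymus-specific subunit, had folds of 2.82 and 2.88 in DKO EBs against 2.84 in parental EB replicate 1, at or below the 5.5 percentile of each list.

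All 6 ATPases of the 19S base, which unfold the substrate, had an end peak in both WDR5WT and both H9 lists. There 48.2% to 54.9% of all genes had one. In S91K-Y191F the counts were 0 and 5, in backbone 0 and 0, in C9 6 and 5, and in parental ESCs 5 and 0. All genes had 13.1% and 33.8% in S91K-Y191F, 1.24% and 4.9% in backbone, 43.0% and 44.3% in C9, and 40.8% and 12.4% in parental ESCs. In EBs 5 of 6 had one in each DKO and parental list, beside 64.6% to 66.7% of all genes. The missing gene was Psmc5 throughout. Psmc1 had signals of 699 and 444 in WDR5WT, 508 and 547 in C9 and 745 and 651 in H9, and none in either parental list. The S91K-Y191F replicate 2 peak at Psmc1, with a signal of 202, was the lowest-ranked of the members in that list, at the 0.392 percentile.

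The other 19S subunits were the most uniform group. All 11 had an end peak in each of the 4 EB lists, where 64.6% to 66.7% of all genes had one. S91K-Y191F had 0 and 8, each WDR5WT, C9 and H9 list 10 or 11, backbone 0 and 0, and parental ESCs 11 and 2. The share of all genes was 43.0% to 54.9% in the WDR5WT, C9 and H9 lists. Psmd14, the deubiquitinase that strips ubiquitin from the substrate, had signals of 1050 in S91K-Y191F replicate 2, 1451 and 1497 in WDR5WT, 1221 and 1486 in C9, 1583 and 1360 in H9, and 1202 and 202 in parental ESCs. The second parental value is close to the lowest signal in any ESC list, and the gene ranked at the 0.925 percentile there. Psmd4, a ubiquitin receptor, reached folds of 6.65 and 6.88 in DKO against 7.15 and 6.42 in parental EBs, at the 89.3 to 97.1 percentile. In the ESC lists that held it, Psmd4 lay between the 8.31 and the 38.7 percentile.

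Psmd8, a lid subunit, was the top-ranked member in parental EB replicate 2, at the 99.1 percentile with a fold of 8.13. In ESC lists it ranked between the 5.48 percentile in C9 replicate 2 and the 51.1 percentile in S91K-Y191F replicate 2. Psmd1 and Psmd2, the large scaffold subunits of the base, were weaker. Psmd1 had signals of 287 and 358 in WDR5WT, none in C9, 307 and 332 in H9, and 409 in parental ESC replicate 1. Psmd2 was the lowest-ranked member in H9 replicate 2, at the 3.34 percentile with a signal of 234. Psmd7, on chromosome 8, had signals of 742 in S91K-Y191F replicate 2, 965 and 1292 in WDR5WT, 862 and 1029 in C9, 812 and 1173 in H9, and 472 in parental ESC replicate 1.

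The activator genes differed from each other. Psme1 and Psme2 encode the interferon-induced cap, lie close together on chromosome 14 and were unlike in ESCs. Psme2 had signals of 205 and 573 in S91K-Y191F, 1158 and 1228 in WDR5WT, none in backbone, 799 and 950 in C9, 1180 and 966 in H9, and 1021 and 246 in parental ESCs. Psme1 had a single ESC peak, in H9 replicate 1, with a signal of 229. The start of Psme2 lies 612 bp from the start of Rnf31, and in 8 of its 14 lists the peak was nearer to Rnf31.

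Psme4, whose product caps the core in the nucleus, had a peak in 12 lists, with signals of 286 in S91K-Y191F replicate 2, 358 and 1375 in WDR5WT, 269 and 272 in C9, 306 and 341 in H9, and 688 in parental ESC replicate 1. Psme3, the nuclear activator, had 272 and 450 in WDR5WT and 213 in parental ESC replicate 1, and no other ESC peak. In EBs Psme1 had folds of 4.49 and 3.19 in DKO against 4.10 and 3.73 in parental EBs. Psme2 had 4.47 and 4.73 in DKO against 5.13 and 4.89 in parental EBs. Psme4 had 4.07 and 4.44 in DKO against 4.75 and 4.88 in parental EBs. For Psme2 and Psme4 both DKO values were below both parental values, but fold enrichment is scaled within each list and was not compared by a test.

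All 7 assembly chaperones had an end peak in each EB list, where 64.6% to 66.7% of all genes had one. In ESCs the counts were 1 and 5 in S91K-Y191F, 5 and 5 in WDR5WT, 0 and 0 in backbone, 5 and 4 in C9, 5 and 5 in H9, and 5 and 1 in parental ESCs. The share of all genes ranged from 1.24% to 54.9% over the ESC lists. Psmd9 and Psmg3 were the 2 chaperones absent from every ESC list. Psmd9, which helps to assemble the base, had folds of 4.00 and 4.28 in DKO against 5.27 and 4.91 in parental EBs. Psmg3, which helps to build the alpha ring, had 2.76 and 3.97 in DKO against 3.89 and 3.13 in parental EBs and was the lowest-ranked member in DKO EB replicate 1 and parental EB replicate 2.

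Psmd10, the chaperone gankyrin and the only member on the X chromosome, was the top-ranked member in both DKO EB lists, with folds of 7.08 and 7.69 against 7.22 and 6.01 in parental EBs. In the ESC lists it had signals of 1063 in S91K-Y191F replicate 2, 2117 and 2252 in WDR5WT, 2086 and 2160 in C9, 2145 and 2092 in H9, and 1237 in parental ESC replicate 1. It ranked at the 78.1 percentile or above wherever it was found. Psmd5 and Psmg4 were found in 13 lists each, Psmd5 in both S91K-Y191F lists (signals 252 and 648) but not in parental ESC replicate 2, and Psmg4 in both parental ESC lists (784 and 204) but not in S91K-Y191F replicate 1.

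Psme3ip1, which is no subunit, was the top-ranked member in 8 ESC lists: S91K-Y191F replicate 2, both WDR5WT, backbone replicate 2, both C9 and both H9 lists. Its signals were 372 and 1845 in S91K-Y191F, 2475 and 2495 in WDR5WT, none and 288 in backbone, 2446 and 2724 in C9, 2545 and 2399 in H9, and 1181 and 220 in parental ESCs. Its start lies 21 bp from that of Rspry1, to which the peak was nearer in 11 of the 15 lists. Psmc3ip had weak ESC peaks in 4 lists, and was the lowest-ranked member in C9 replicate 1 at the 1.14 percentile.

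Within a list, proteasome gene peaks ranked below the middle of all gene end peaks in ESCs and above it in EBs. The median percentile of the members with an end peak, 50 by construction over all genes, was 63.8 and 69.5 in DKO EBs and 65.9 and 69.5 in parental EBs, by fold enrichment. In the 11 ESC lists that held any, it lay between 18.3 (parental ESC replicate 2, 7 members) and 47.3 (H9 replicate 2, 35 members), by signal. Ranked by the authors' −log10 p instead, after the data were seen, the medians were 56.2 to 61.9 in EBs and 21.2 to 51.1 in ESCs. Ranked by peak width they were 36.2 to 38.8 in EBs and 28.6 to 42.8 in ESC lists, but for 66.7 in parental ESC replicate 2.

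**Figure D3:**
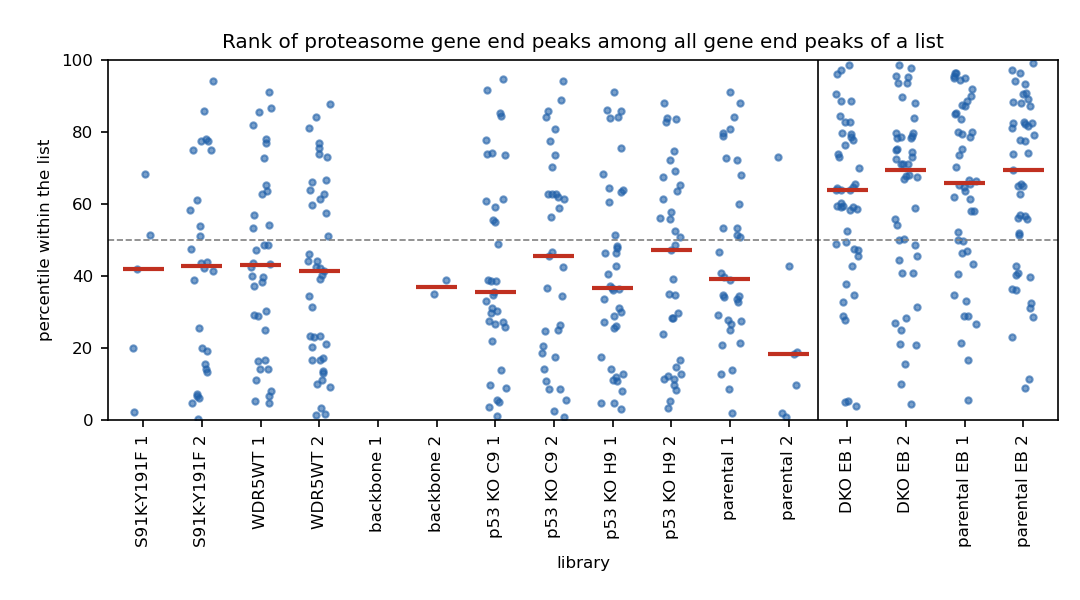
Percentile of each proteasome gene's end peak (points) among all gene end peaks of its list (y axis), per library (x axis), with the median as a red bar and 50 as a dashed line. The EB medians lie at 63.8 to 69.5 and the ESC medians at 18.3 to 47.3, while single genes spread over nearly the whole range in every long list.

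Most of the peaks sat at the start sites. The same share was not taken over all genes, so it is not read as a trait of the members. Of the end peaks of members with an annotated start site, 217 of 243 (89.3%) in ESC lists had their summit within 250 bp of it, and 126 of 150 (84.0%) in EB lists had their centre there. The median position relative to the start site was -45 bp (upstream) in ESC lists and 15.5 bp (downstream) in EB lists. The EB lists give no summit, so both values differ in kind. Among the exceptions were Psmb10 and Psmb8, described above, and Psma3, whose end peaks lay upstream of its annotated start site, at the outer end of the gene.

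**Figure D4:**
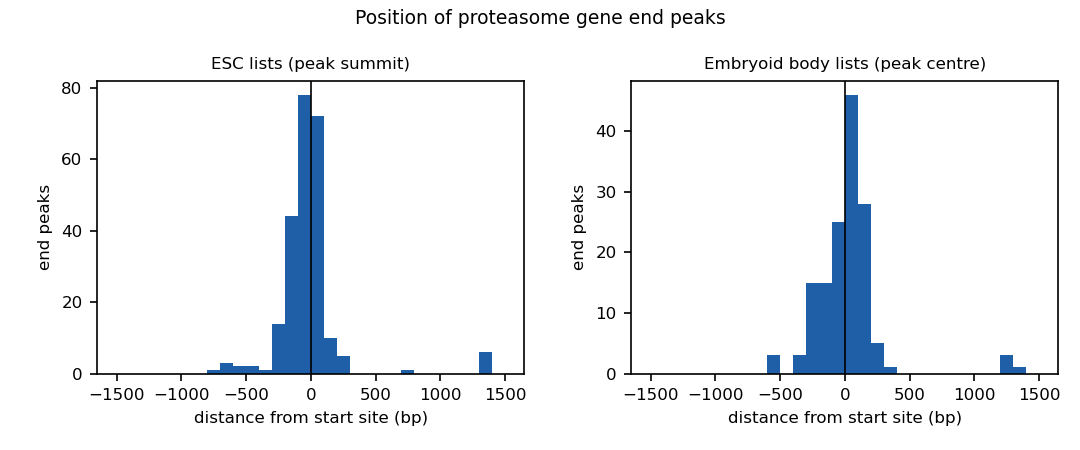
Distance in bp from the annotated start site to the summit (ESC lists, left) or centre (EB lists, right) of each proteasome gene end peak, in bins of 100 bp, with negative values upstream and the number of peaks on the y axis. Most peaks lie within 250 bp of the start, the small group over 1000 bp downstream is Psmb10, and 9 peaks beyond 1500 bp (8 of Psma3 and 1 of Psmb11) are not drawn.

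Proteasome genes often lie close to other genes. Another protein-coding gene ended or began within 1000 bp for 21 of 51 members (41.2%), beside 24.8% of all genes, and within 2000 bp for 27 (52.9%), beside 32.2%. An opposite-strand gene started within 1000 bp of the start for 8 of the 43 members with known strand (18.6%), beside 10.3% of genes with known strand. These pairs were Psma7 with Ss18l1 (19 bp apart), Psme3ip1 with Rspry1 (21 bp), Psmd13 with Sirt3 (85 bp), Psmc5 with Ftsj3 (101 bp), Psma2 with Mrpl32 (205 bp), Psmb9 with Tap1 (226 bp), Psme2 with Rnf31 (612 bp) and Psmb3 with Pcgf2 (1000 bp). A peak over such a start cannot be given to one of the genes.

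In EBs the share of members with an end peak stood above that of all genes among genes without a close neighbour, and below it among genes with one. Of the 30 members with none within 1000 bp, 29 (96.7%) and 29 (96.7%) had an end peak in DKO EBs and 29 (96.7%) and 28 (93.3%) in parental EBs, beside 58.0% to 60.2% of all genes with none. In WDR5WT ESCs 23 (76.7%) and 24 (80.0%) of these 30 had one, beside 43.4% and 48.3%. Of the 21 members with a close neighbour, 16 (76.2%) and 17 (81.0%) had one in DKO EBs and 17 (81.0%) and 17 (81.0%) in parental EBs, beside 84.6% to 86.5% of such genes. In WDR5WT the counts were 13 (61.9%) and 17 (81.0%), beside 67.8% and 75.1%. Among the members with a close neighbour, Psma7, Psmc5, Psme2b and Psmf1 had an end peak in no EB list. Psma7 and Psmc5 lie in stretches, described below, where every EB list was empty. The EB shares of the 21 thus rest on few genes. No test of these shares was made.

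Psma7 and Psmc5 were the 2 members (3.92%) with an end peak in all 6 C9, H9 and WDR5WT lists and in no EB list, a pattern of 147 genes (0.672% of all). Psma7, an alpha subunit, had signals of 537 in S91K-Y191F replicate 2, 1592 and 2084 in WDR5WT, 1334 and 1628 in C9, 1199 and 1422 in H9, and 424 in parental ESC replicate 1. Psmc5, a base ATPase, had 259 and 389 in WDR5WT, 489 and 324 in C9, 640 and 386 in H9, and 400 in parental ESC replicate 1. Both lay in stretches where all 4 EB lists, DKO and parental, were empty. Around Psmc5 no EB list had a peak over 85.3 kb (chr11:106217427-106302726), where each C9, H9 and WDR5WT list had 2 or 3, and Ftsj3, Smarcd2 and Tcam1 showed the same pattern. Around Psma7 the empty stretch was 70.2 kb (chr2:180025601-180095807), with 2 peaks in each C9, H9 and WDR5WT list, and Mtg2 and Ss18l1 shared the pattern. The authors removed blacklisted regions from the EB lists; whether these stretches are among them was not tested.

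The 47 promoter windows of members (some genes have more than one) had a median GC content of 57.3%, beside 56.3% for all 21262 windows, and a median of 19 CpG dinucleotides, beside 13. The ETS motif CCGGAAG was in 36.2% of member windows and 11.6% of all windows, and the NRF1 motif in 14.9% and 6.38%. TGANNNNGC was in 57.4% and 41.7%, while its long form TGACTCAGC, which is itself a match to it, was in none of the member windows and 0.414% of all. CCAAT was in 34.0% and 38.2%, the E-box CACGTG in 10.6% and 7.84%, and TATAAA in 8.51% and 12.6%. All were searched on both strands, and a match is a run of letters, not a bound site. In the promoters shown above, the NRF1 motif stood in the widely found Psma2 and in the ESC-only Psmc5, and the TGANNNNGC motif in the EB-only Psmb5 and Psmb6 and the ESC-only Psma7, so neither motif stood with one pattern alone.

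The ESC groups were compared in 8 contrasts, beside the EB one, to ask what the loss of Wdr5 and p53 and the return of wild-type or mutant WDR5 did at these genes. They share libraries, and the lists of each ESC group enter more than one of them, so the contrasts are not independent. Nothing in the labels shows replicates to come from separate cultures, so the p-values speak for the spread among the libraries alone, which may be technical. With 2 libraries against 2 the smallest two-sided exact permutation p is 0.333, and with 4 against 2 it is 0.0667, so these contrasts cannot reach 0.05. P-values were adjusted over the 9 comparisons by the Benjamini-Hochberg method.

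S91K-Y191F ESCs had 32.4% ± 31.9 of the members with an end peak and backbone ESCs 1.96% ± 2.77 (SD, n = 2 each). The difference was 30.4 percentage points (exact permutation p = 0.333, adjusted 0.429), beside 20.4 for all genes. Without S91K-Y191F replicate 1 it was 52.9 and without replicate 2 it was 7.84. It was 19.6 in the upper 50% of each list by p. With lists of equal length it was 1.96 (1.96% in S91K-Y191F and 0.0% in backbone), beside 2.53 for all genes. So few members were left that equal length gave little room for a difference. Psma1, Psmd5 and Psme2 (5.88%) were in both S91K-Y191F lists and neither backbone list, where 8.32% of all genes were, so the members did not exceed the background. Without S91K-Y191F replicate 1 the count was 26, and without backbone replicate 2 it was 5. No member and 0.0% of all genes were in both backbone lists and neither S91K-Y191F list.

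WDR5WT ESCs had 75.5% ± 6.93 of the members and backbone ESCs 1.96% ± 2.77 (SD, n = 2 each). The difference of 73.5 percentage points exceeded the spread within either group (exact permutation p = 0.333, adjusted 0.429) and stood beside 49.1 for all genes. With lists of equal length it was 0.98 (0.98% in WDR5WT and 0.0% in backbone), beside 4.46 for all genes. So few members were left that this setting gave little room for a difference. In both WDR5WT lists and neither backbone list were 34 members (66.7%), beside 43.7% of all genes. They comprise every member in both WDR5WT lists but Psma2 and Psme3ip1, which backbone replicate 2 also held. Of the 34, Psma1 and Psme2 were found in the most lists, then Psmd3, Psmd5, Psmd14 and Psmg4, and then 14 that were tied, the first of them by symbol being Psma4, Psma5, Psmc2 and Psmc3. In the other direction there was none, beside 0.219% of all genes.

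S91K-Y191F ESCs had 32.4% ± 31.9 and WDR5WT ESCs 75.5% ± 6.93 of the members (SD, n = 2 each), a difference of -43.1 percentage points (exact permutation p = 0.333, adjusted 0.429), beside -28.8 for all genes. It was -20.6 without S91K-Y191F replicate 1 and -65.7 without replicate 2. With lists of equal length it was -2.94 (13.7% in S91K-Y191F and 16.7% in WDR5WT), beside -4.15 for all genes. Psma3, Psma8, Psmb1, Psmb2, Psmb10, Psmc5, Psmd1, Psmd4 and Psme3 (17.6%) were in both WDR5WT lists and neither S91K-Y191F list, beside 15.9% of all genes. Without S91K-Y191F replicate 2 that count was 31. In both S91K-Y191F lists and neither WDR5WT list there was none, beside 0.366% of all genes. Psmb1 had signals of 547 and 442 in WDR5WT, and Psmb2 had 857 and 687.

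Backbone ESCs had 1.96% ± 2.77 and parental ESCs 40.2% ± 37.4 of the members (SD, n = 2 each), a difference of -38.2 percentage points (exact permutation p = 0.333, adjusted 0.429), beside -23.5 for all genes. The spread between the parental lists was as large as the difference. It was -64.7 without parental replicate 2 and -11.8 without parental replicate 1. It was -22.6 in the upper 50% of each list by p. With lists of equal length it was -1.96 (0.0% in backbone and 1.96% in parental ESCs), beside -1.82 for all genes. So few members were left that equal length gave little room for a difference. Psma1, Psmd3, Psmd14, Psme2 and Psmg4 (9.80%) were in both parental lists and neither backbone list, beside 7.92% of all genes, and without parental replicate 2 there were 32. No member was in both backbone lists and neither parental list, where 0.0183% of all genes were. Psmd3, a lid subunit, had signals of 520 and 244 in parental ESCs.

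The p53 knockout clones had 69.6% ± 4.94 (SD, n = 4) and parental ESCs 40.2% ± 37.4 (SD, n = 2) of the members. The difference was 29.4 percentage points (exact permutation p = 0.133, adjusted 0.429), beside 19.5 for all genes, and it was 2.94 without parental replicate 2 and 55.9 without parental replicate 1. With lists of equal length it was 1.47 (17.2% in the clones and 15.7% in parental ESCs), beside 3.95 for all genes. Psmb10 and Psmc1 (3.92%) were in all 4 knockout lists and neither parental list, beside 4.51% of all genes. Without parental replicate 1 there were 23. No member was in both parental lists and no knockout list, where 0.356% of all genes were, and without parental replicate 2 there was 1. Psmb10 lies on chromosome 8, which holds 4.76% of all genes and 152 of the 986 genes (15.4%) with this pattern. Chromosome 8 also held 28.6% and 23.3% of all peaks in the backbone lists and 8.96% to 9.78% in the p53 knockout lists, against 6.25% and 11.1% in the parental ones. The part of chromosome 8 in this result was not tested.

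WDR5WT ESCs had 75.5% ± 6.93 (SD, n = 2) and the p53 knockout clones 69.6% ± 4.94 (SD, n = 4) of the members, a difference of 5.88 percentage points (exact permutation p = 0.333, adjusted 0.429), beside 6.11 for all genes. The ranges of the groups overlap, and the difference was 10.8 without WDR5WT replicate 1, 0.98 without WDR5WT replicate 2 and 2.91 with start sites alone. Psme3 (1.96%) was in both WDR5WT lists and no knockout list, beside 1.14% of all genes, and without H9 replicate 1 there were 2. No member was in all 4 knockout lists and neither WDR5WT list, where 0.119% of all genes were, and without WDR5WT replicate 2 there was 1. In all 6 lists there were 29 members (56.9%), beside 38.1% of all genes.

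Clone C9 had 66.7% ± 2.77 and clone H9 72.5% ± 5.55 of the members (SD, n = 2 each), a difference of -5.88 percentage points (exact permutation p = 0.667, adjusted 0.75), beside -4.91 for all genes. Psmd1 (1.96%) was in both H9 lists and neither C9 list, beside 2.3% of all genes. In both C9 lists and neither H9 list there was none, beside 0.242% of all genes. The difference was -1.96 without H9 replicate 1, -9.80 without H9 replicate 2, -3.92 without C9 replicate 2 and -3.49 with start sites alone. The H9 count was 4 without C9 replicate 1 or without H9 replicate 2, and the C9 count was 1 without C9 replicate 1 or without H9 replicate 1.

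Over all ESC lists, the 4 without wild-type WDR5 (S91K-Y191F and backbone) had 17.2% ± 25.5 and the 8 with it (WDR5WT, C9, H9 and parental) 63.7% ± 20.9 of the members (SD). The difference was -46.6 percentage points (two-sided exact permutation test over 4 and 8 libraries, p = 0.00404, adjusted over the 9 comparisons 0.0364), beside -29.5 for all genes. It was -59.2 to -40.9 when single libraries were left out, with p between 0.00303 and 0.0121. The groups overlapped, since S91K-Y191F replicate 2 (54.9%) lay above parental replicate 2 (13.7%). When the genotype means were the unit (2 against 4), a choice made after the data were seen, p was 0.0667, the smallest that design allows. When every list was shortened to the length of the shortest (1535 peaks), the shares were 0.98% and 2.21%. That difference was -1.23 (exact permutation p = 0.267), beside -2.31 for all genes. Few members were left on either side, so this setting left little room for a difference. List length and genotype cannot be told apart here. No member was in all 8 lists with wild-type WDR5 and none of the 4 without, or the reverse, where 0.0685% and 0.0% of all genes were. Without parental replicate 2 the first count was 4, and without S91K-Y191F replicate 2 it was 3.

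The wider ubiquitin and proteasome pathway behaved much like the members in the long lists. Of 76 other pathway genes, 68 (89.5%) and 70 (92.1%) had an end peak in DKO EBs against 70 (92.1%) and 69 (90.8%) in parental EBs. In ESCs 23 (30.3%) and 49 (64.5%) had one in S91K-Y191F, 59 (77.6%) and 66 (86.8%) in WDR5WT, 4 (5.26%) and 9 (11.8%) in backbone, 53 (69.7%) and 50 (65.8%) in C9, 56 (73.7%) and 61 (80.3%) in H9, and 52 (68.4%) and 20 (26.3%) in parental ESCs. Over all genes the share was 64.6% to 66.7% in EB lists and 1.24% to 54.9% in ESC lists. The share of the 76 was above that of all genes in every list. It was also above that of the 51 members in every list but H9 replicate 1, where it was 73.7% beside 76.5%. No test of these differences was made.

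Among 13 regulators of proteasome genes, 7 had an end peak in both WDR5WT lists and neither backbone list, a pattern of 43.7% of all genes: Nfe2l1, Nfe2l3, Nfyb, Maff, Mafg, Mafk (small partners of the NFE2 factors) and Ngly1, the enzyme that helps to activate NFE2L1. Nfe2l2 and Nfya were in at least 15 lists, as were 3.89% of all genes. Of 15 genes of ubiquitin and of proteasome partners, 12 were in both WDR5WT lists and neither backbone list, among them Pomp, the maturation factor of the core, Adrm1, a ubiquitin receptor, and Usp14, a deubiquitinase. The same pattern was shown by 15 of 24 genes of ubiquitin activation and conjugation and by 10 of 12 shuttle and segregase genes, Vcp included. Between DKO and parental EBs, none of the 76 was in both lists of one genotype and neither of the other. Over all genes 0.695% were in DKO EBs only and 0.818% in parental EBs only. Uba3, Ube2m and Ube2n were in both parental ESC lists and neither backbone list, as were Txnl1, Usp14, Zfand5, Nfe2l1, Nfyb, Faf1, Nsfl1c and Pdia3. That pattern was shown by 7.92% of all genes. Ube2h was in all 4 p53 knockout lists and neither parental list, Ube2g2 in both WDR5WT lists and no knockout list, and Mafg and Nfe2l3 in both H9 lists and neither C9 list. Over all genes these patterns held 4.51%, 1.14% and 2.3%, in that order.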

How the data were processed

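ATAC-seq peak lists of 16 libraries in 8 groups were used as deposited, with no filter on low peaks; chromosomes 1 to 19, X and Y were kept. Per the submitters' processing notes, the build was mm10 and the tools were MACS2 2.1.2, Genrich 0.6, DESeq2, SAMtools and Bowtie2 2.3.5, with no role stated. The deposited ESC lists give a signal of unstated scaling, never under 200, a −log10 p-value, a q column of -1 throughout and a summit, and their caller is not given in the sources used here. The deposited EB lists give a score of 10 times the −log10 q-value, a ratio (fold enrichment) and −log10 p, in the form MACS2 writes, with blacklisted regions removed by the authors, per the file names. The authors' signals, ratios and p-values served only to rank or filter peaks within a list.

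Gene ends came from the RefSeq table of GRCm38.p6 and start sites from its promoter table. The percent of members per library was averaged by group, and a two-sided exact permutation test over libraries was applied, tested on simulated data first. Replicate numbers did not pair the libraries (correlations of same-numbered libraries' deviations over genes -0.062 to 0.0732). Alternatives were windows of 500 and 2500 bp, start sites alone, the upper 50% of each list by p, equal list length, subunits without Psmc3ip and Psme3ip1, a replicate block, leaving out each library and, chosen after the data were seen, added start sites and genotype means. Per comparison, members found in all libraries of 1 side but in no library of its counterpart were named, up to 10, most lists first and then by symbol. The members, gene lists, tests and the role groups were chosen with earlier results of these data known. Of 77 other pathway genes, 76 matched the gene table; Paaf1 did not. The list of antigen presentation genes is in the total of 76 but is not reported here on its own. Python 3.11.15, NumPy 2.4.6 and pandas 2.3.3 were used.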

Additional observations from a re-analysis of the deposited data

Results flagged for a closer look

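Parental ESC replicate 2 had an end peak at 13.7% of the proteasome genes (7 of 51) and stood apart from the other 7 of the 8 ESC libraries with wild-type WDR5, which had 64.7% to 80.4%. The gap to the nearest of them, divided by the whole range, was 0.765, above the critical value of 0.526 for 8 libraries. Chance flags about 1 in 20 groups drawn from a single population, which these 8 libraries of 4 genotypes need not be. The rule was also applied to the p53 knockout libraries and to the ESC libraries without wild-type WDR5, at both ends. It flagged none of them, though S91K-Y191F replicate 2 came close (0.821, critical value 0.829). Parental ESC replicate 2 was thus the only library flagged. The list of parental ESC replicate 2 had 5330 peaks, against 24367 in parental ESC replicate 1, and 12.4% of all genes had an end peak in it. The 7 members in it were Psma1, Psma2, Psmd3, Psmd14, Psme2, Psme3ip1 and Psmg4. With lists of equal length the p53 knockout clones averaged 17.2% of the members and parental ESCs 15.7%.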

How the results depend on the processing

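Among the 8 ESC comparisons, 60 differences in the percent of members under other settings kept their direction and their side of the threshold, as did all 44 with 1 library left out. For the 7 between named groups that side was fixed in advance. Their smallest possible p was 0.333 or 0.0667, and no lower with a library left out. Only the comparison of ESCs without and with wild-type WDR5 could change sides. It did so with equal list length and with genotype means as the unit, where the smallest possible p was 0.0667. The size of the differences did not always hold: with equal list length, 5 of the 7 differences between named groups were -2.94 to 1.96. Those that involve backbone were taken at 1535 peaks per list. There 0.0% to 1.96% of the members were left on each side, which gave little room for a difference. The difference of 0.0 between DKO and parental EBs was -1.96 to 0.0 under 8 other settings and -0.98 or 0.98 with 1 library left out. With equal list length the difference between ESCs without and with wild-type WDR5 was -1.23 (exact permutation p = 0.267), and with genotype means as the unit it was -46.57 (p = 0.0667). For the other settings its p was between 0.00404 and 0.00606. With the replicate number as a block the differences stayed by construction at 0.0 (DKO against parental EBs), -38.24 (backbone against parental ESCs), 30.39 (S91K-Y191F against backbone), 73.53 (WDR5WT against backbone), -43.14 (S91K-Y191F against WDR5WT) and -5.88 (C9 against H9), and the exact permutation p was 0.5 or more, the smallest that 2 pairs give.

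Of the counts of members in one group alone, 97 stayed within 1.5 times and 11 moved. With equal list length the parental count against backbone was 0, the S91K-Y191F count against backbone 0, the WDR5WT count against backbone 0, the WDR5WT count against S91K-Y191F 2, the parental count against p53 knockouts 1 and the C9 count against H9 1. Against backbone, equal list length left few members to count. With the upper 50% by p the parental count against backbone was 1, the WDR5WT count against p53 knockouts 0 and the C9 count against H9 1. With start sites alone the WDR5WT count against S91K-Y191F was 5, and with 500 bp windows the p53 knockout count against parental ESCs was 1.

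With 1 library left out, 80 counts stayed and 16 moved. The differences and counts (first group alone, second group alone) ranged as follows. For DKO against parental EBs they were -0.98 to 0.98, with 0 to 1 and 0 to 1. For S91K-Y191F against backbone they were 7.84 to 52.94, with 3 to 26 and 0. For WDR5WT against backbone they were 68.63 to 78.43, with 34 to 39 and 0. For S91K-Y191F against WDR5WT they were -65.69 to -20.59, with 0 and 9 to 31. For backbone against parental ESCs they were -64.71 to -11.76, with 0 and 5 to 32. For p53 knockouts against parental ESCs they were 2.94 to 55.88, with 2 to 23 and 0 to 1. For WDR5WT against p53 knockouts they were 0.98 to 10.78, with 1 to 2 and 0 to 1. For C9 against H9 they were -9.8 to -1.96, with 0 to 1 and 1 to 4. For ESCs without against with wild-type WDR5 they were -59.15 to -40.85, with 0 and 0 to 4.

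The causes of these shifts were not tested. Depth is unknown, ESC lists held 1535 to 32709 peaks, and a missing peak does not show closed chromatin.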
